A study of Homo sapiens with 4 samples.

Results

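The genes described here are the mitosis, kinetochore and condensin genes measured in BE(2)C cells, a human neuroblastoma line in which the MYCN oncogene is amplified. The set was listed by gene name from the known roles of the products and holds 54 of the 26364 genes with an expression value. RNA-seq was run on 2 samples that had received a non-targeting control siRNA (Ctrl; genotype given as wild type) and 2 that had received siRNA against MYCN (MYCN KD). In both groups the siRNA was at 80 nM per the labels, from which the final concentration in the study's methods differs, and was delivered with a lipid reagent for 6 h, and RNA was taken the next day. All 4 samples are thus transfected cells of 1 line, and no untransfected sample was part of the comparison. The comparison asks which transcripts differ when MYCN is reduced, and MYCN itself was lowered but not lost.

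At the entry to mitosis, CDK1 bound to cyclin B phosphorylates a large set of proteins, condensin compacts the chromosomes, and spindle microtubules attach to kinetochores built on centromeres that carry CENPA. The spindle assembly checkpoint holds back the anaphase-promoting complex until all chromosomes are attached, after which securin and cyclin B are degraded, the sister chromatids part and the cell divides. Transcripts of this machinery peak in G2 and mitosis, largely through promoters with CHR and CCAAT elements that bind the DREAM or MYBL2-FOXM1 complexes and NF-Y, so in bulk RNA fewer mitotic cells and less transcript per mitotic cell cannot be told apart.

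To show the regulatory sequence that the results refer to, stretches around the transcription start are printed for HMMR and MAD2L1, which had the largest falls among members called lower that have an entry in the RefSeq promoter table, and for ANLN, one of the members whose value lay above 0. They run from 170 bases before to 30 bases after the annotated start, 5′ to 3′ on the strand of the gene, in GRCh38.p14 coordinates (HMMR chr5:163460462-163460661, plus strand; MAD2L1 chr4:120066819-120067018, minus strand; ANLN chr7:36389692-36389891, plus strand). Capitals mark matches on either strand to CCAAT, to the CHR letters TTTGAA or TTTAAA, or to the E-box CACGTG that MYC proteins bind.
HMMR: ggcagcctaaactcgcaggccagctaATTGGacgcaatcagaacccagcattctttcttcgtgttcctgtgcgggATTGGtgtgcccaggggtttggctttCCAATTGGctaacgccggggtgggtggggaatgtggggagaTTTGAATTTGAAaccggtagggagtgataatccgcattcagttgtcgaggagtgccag
MAD2L1: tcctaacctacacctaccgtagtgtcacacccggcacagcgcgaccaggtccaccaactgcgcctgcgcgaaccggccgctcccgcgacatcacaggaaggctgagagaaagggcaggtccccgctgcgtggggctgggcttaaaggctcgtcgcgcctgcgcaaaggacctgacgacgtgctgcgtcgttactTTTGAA
ANLN: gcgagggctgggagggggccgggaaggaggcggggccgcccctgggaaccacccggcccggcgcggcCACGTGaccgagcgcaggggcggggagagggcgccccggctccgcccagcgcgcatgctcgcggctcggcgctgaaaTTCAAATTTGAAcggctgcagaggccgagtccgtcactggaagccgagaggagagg
In HMMR and ANLN a pair of CHR matches stood end to end just before the start, while the CHR match of MAD2L1 lay just after it. Only ANLN of these 3 held the E-box. The table's entry for CENPI, the member with the highest fold change, lay 2854 bases from the RefSeq gene start and is not shown.

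Values are RPKM (reads per gene length and library size), normalized by the authors. The total of normalized reads behind each sample's values was inferred from small RNA genes of known length and lay between 29055819 and 34142988. Since this is after normalization, the sequenced depth itself is not known. A length was then fitted to each gene as the smallest that gave whole reads, so whole numbers were partly built in. The fitted length need not be the true one. With it, all 19908 genes with a value above 0 came out as whole numbers of normalized reads (within 0.02 reads). The lowest such number for any member was 204 reads (KIF18A) and the median over members of the lowest sample's reads was 2324.5. MYCN had 1068 and 1073 RPKM in Ctrl against 720 and 718 in MYCN KD (log2 fold change -0.57, SE 0.029, adjusted p = 0.00361). All 8 adrenergic neuroblastoma markers passed the filter on low values, and they summed to 1353 and 1251 RPKM in Ctrl against 1988 and 2163 in MYCN KD, with 4 called higher and 2 lower. The 6 fibroblast or mesenchymal markers summed to 23.0 and 25.1 RPKM in Ctrl against 31.1 and 28.5 in MYCN KD, and the 4 blood markers, almost wholly through CD68, summed to 4.29 and 3.49 RPKM in Ctrl against 9.45 and 11.5 in MYCN KD. The 3 endothelial markers summed to 0.286 and 0.367 RPKM in Ctrl against 0.638 and 0.504 in MYCN KD. The summed level of each of these lists was thus higher in both MYCN KD samples, and its part in the members' results was not tested. Only 4 mesenchymal markers (3 called higher), 1 blood marker (CD68) and 0 endothelial markers passed the filter on low values. The blood sum thus rests on 1 gene and the endothelial sum on values near the floor. Replicate 1 departed from its group mean in opposite directions in Ctrl and MYCN KD (r = -0.98 across genes, which are not independent replicates), so the 4 samples vary less independently than the test assumes.

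Fold changes below are log2 fold changes of MYCN KD against Ctrl on the log2(RPKM + 1) scale, which understates changes of low genes. They were tested with limma across 11411 genes, and a member is said to have fallen where its two-sided Benjamini-Hochberg adjusted p was under 0.05. All 54 members passed the filter on low values. Of these, 26 fell (48.1%, where 22.8% of all tested genes were called lower) and 0 rose (where 25.3% of all tested genes were called higher), and 28 were not called. At 39 members (72.2%) both MYCN KD values lay below both Ctrl values, where 35.8% of all tested genes did so. The reverse order was found for 2 members, ANLN and SMC4 (3.70%, where 40.4% of all tested genes did so), and the groups overlapped for 13. The median log2 fold change was -0.26 (quartiles -0.42 and -0.11, range -0.79 to 0.26), beside 0.03 for all tested genes. Leaving out 1 sample gave between 21 and 25 lower calls and between 0 and 2 higher ones, the latter being ANLN and CENPI without replicate 2 of either group. Rescaling to equal totals ended 5 lower calls, those of CCNB2, BUB1B, CENPH, ZWINT and KIF23 (adjusted p from 0.0568 to 0.139), and testing all genes without the filter ended 4, those of CCNB2, BUB1B, BIRC5 and CENPF (from 0.0519 to 0.0681).

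**Figure D1:**
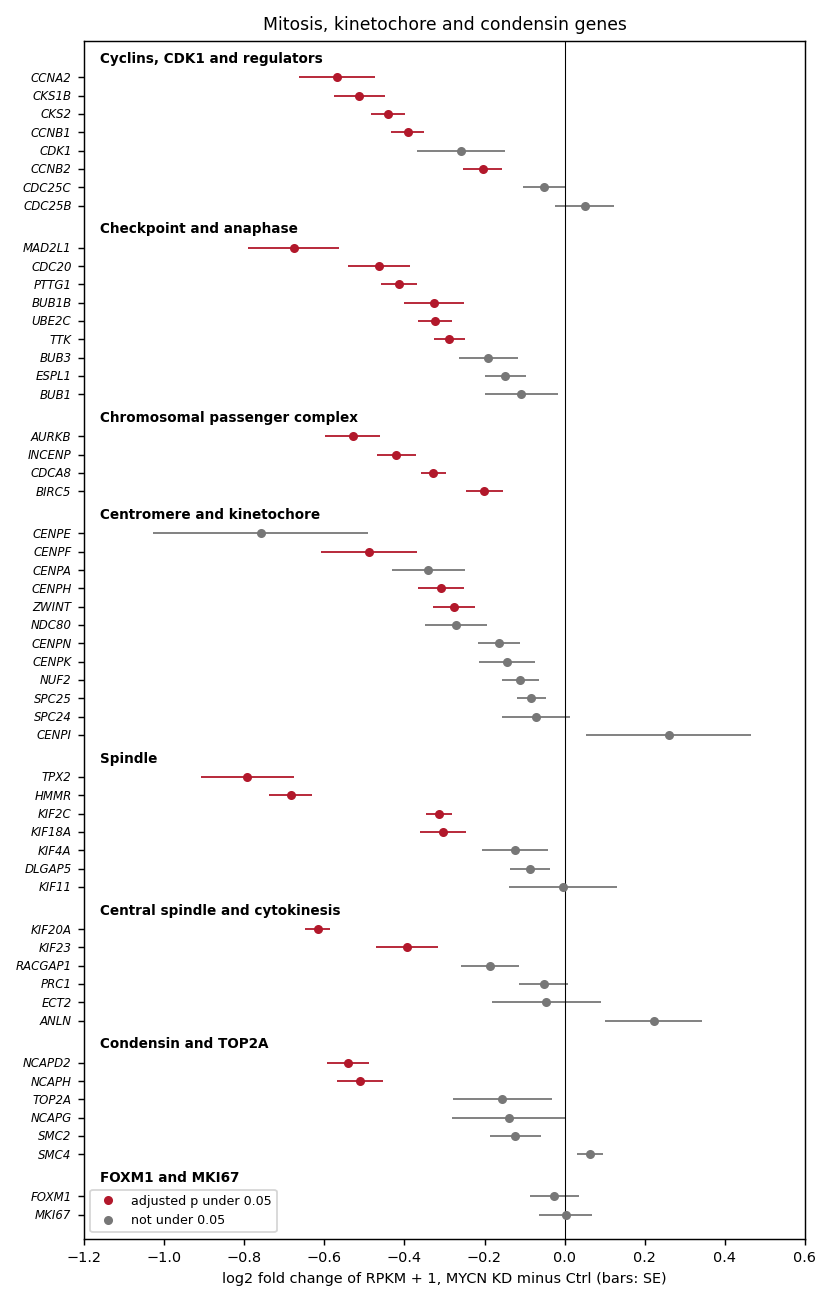
Log2 fold change (MYCN KD against Ctrl, log2(RPKM + 1) scale) of each of the 54 members by role, with bars for the standard error. The fold changes run from -0.79 (TPX2) to 0.26 (CENPI); 26 members were called lower and 0 higher.

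Added over all members, RPKM came to 2888 and 2929 in the Ctrl samples against 2372 and 2343 after knockdown. Both MYCN KD sums lay below both Ctrl sums (exact two-sided permutation test over samples, p = 0.333, the smallest p that 2 against 2 samples can give). The fold change exceeded the larger of the within-group gaps between replicates at 41 of 54 members, and at 8614 of 11411 tested genes. The median of that gap was 0.10 on the log2 scale, against a median absolute fold change of 0.26. Over all tested genes these medians were similar, 0.11 and 0.26.

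**Figure D2:**
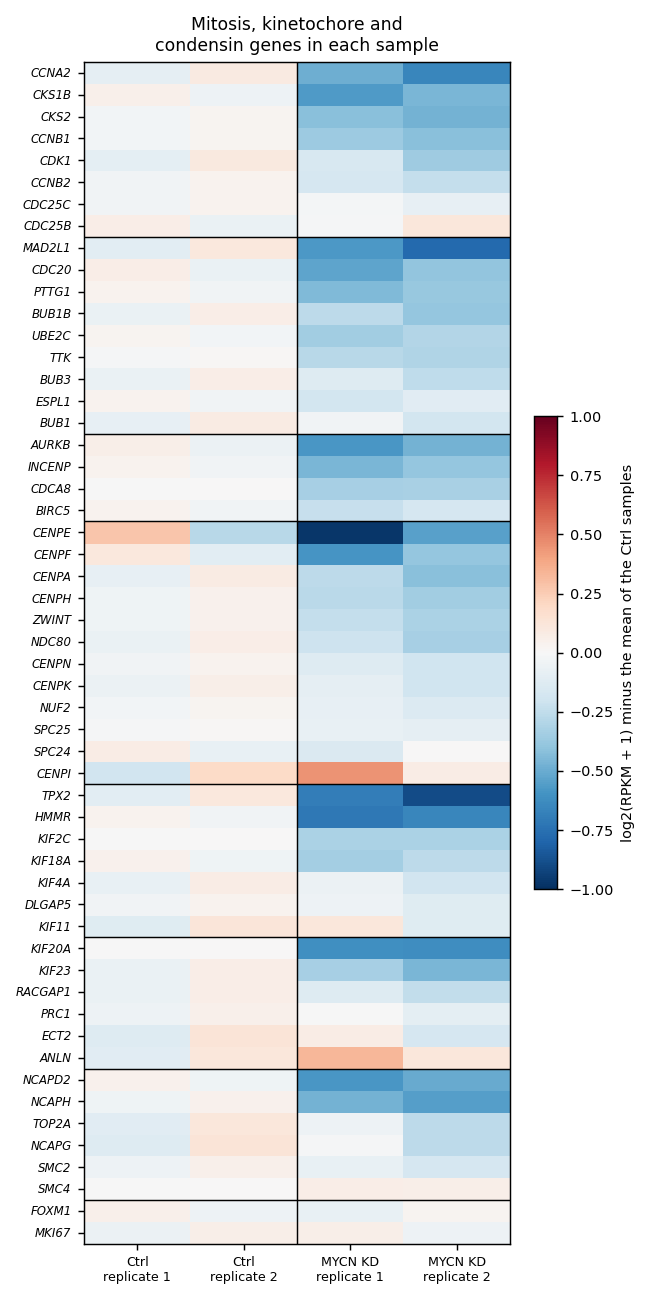
Each member's log2(RPKM + 1) minus its mean in the Ctrl samples, as colour (blue lower, red higher), with members in rows by role and samples in columns. For 39 of the 54 rows both MYCN KD columns are lower than both Ctrl columns, and the replicates deviate in opposite directions in the 2 groups.

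Among cyclins, CDK1 and their regulators, 5 of 8 members fell (62.5%, where 22.8% of all tested genes were called lower). The median log2 fold change was -0.33. CCNA2, the cyclin that drives S phase and the entry to mitosis, had 54.5 and 61.6 RPKM in Ctrl against 41.1 and 36.5 in MYCN KD (log2 fold change -0.57, SE 0.095, adjusted p = 0.0197). The small CDK-binding protein CKS1B had 109 and 102 RPKM in Ctrl against 71.0 and 76.4 in MYCN KD (log2 fold change -0.51, SE 0.064, adjusted p = 0.0109). CKS2, its close relative and the highest of this group, had 179 and 187 RPKM in Ctrl against 137 and 132 in MYCN KD (log2 fold change -0.44, SE 0.043, adjusted p = 0.00705). The groups were apart for all 3, by more than the replicates differed. Of the mitotic cyclins, CCNB1 had 113 and 118 RPKM in Ctrl against 89.2 and 86.1 in MYCN KD (log2 fold change -0.39, adjusted p = 0.00812). CCNB2 had 110 and 116 RPKM in Ctrl against 101 and 95.9 in MYCN KD (log2 fold change -0.20, adjusted p = 0.0409). The lower call of CCNB2 was lost when any of the 4 samples was left out (adjusted p from 0.0784 to 0.250), while that of CCNB1 was not. CDK1, the kinase itself, had a log2 fold change of -0.26 (95% CI -0.58 to 0.07, adjusted p = 0.137) and with 1 sample left out it ranged from -0.36 without Ctrl replicate 1 (adjusted p = 0.0172) to -0.16 without Ctrl replicate 2 (0.337). The phosphatases that activate CDK1 were not called: CDC25B had 108 and 98.5 RPKM in Ctrl against 102 and 111 in MYCN KD (log2 fold change 0.05, 95% CI -0.17 to 0.27). CDC25C had 6.03 and 6.39 RPKM in Ctrl against 6.12 and 5.80 in MYCN KD (log2 fold change -0.05, 95% CI -0.21 to 0.11). For both phosphatases the groups overlapped. The sign for CDC25B turned to -0.01 without replicate 2 of either group.

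The spindle assembly checkpoint and anaphase genes had 6 lower calls among 9 members (66.7%, where 22.8% of all tested genes were called lower). The median log2 fold change was -0.32. MAD2L1, the checkpoint protein that sequesters CDC20, had 59.3 and 68.8 RPKM in Ctrl against 42.5 and 36.9 in MYCN KD (log2 fold change -0.68, SE 0.11, adjusted p = 0.0199). Its target CDC20, the activator of the anaphase-promoting complex, had 91.2 and 83.0 RPKM in Ctrl against 60.0 and 65.8 in MYCN KD (log2 fold change -0.46, SE 0.077, adjusted p = 0.0195). UBE2C, the ubiquitin-conjugating enzyme that works with that complex and the most abundant of the 54 members, had 243 and 233 RPKM in Ctrl against 186 and 194 in MYCN KD (log2 fold change -0.32, SE 0.042, adjusted p = 0.0116). In each case the MYCN KD samples were both below the Ctrl samples, and the replicates of a group stayed closer to each other than to the other group. PTTG1 (securin) also fell, with a log2 fold change of -0.41, although its reads may be shared with near-identical retrocopies. TTK, a checkpoint kinase, had a log2 fold change of -0.29 with 4 samples, but its call was lost when any 1 was left out (adjusted p from 0.0842 to 0.129). The paralogs BUB1 and BUB1B differed in their calls. BUB1B had 30.8 and 33.7 RPKM in Ctrl against 26.6 and 24.4 in MYCN KD (log2 fold change -0.33, adjusted p = 0.0372; 0.0833 without Ctrl replicate 2 and 0.0925 without MYCN KD replicate 2). BUB1 had 12.6 and 14.2 RPKM in Ctrl against 13.1 and 11.7 in MYCN KD, groups that overlapped (log2 fold change -0.11, 95% CI -0.37 to 0.16). The other checkpoint protein BUB3 had a log2 fold change of -0.19 (95% CI -0.41 to 0.03) and the protease separase, ESPL1, one of -0.15 (95% CI -0.30 to 0.00); for neither did the groups overlap, and neither was called.

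All 4 members of the chromosomal passenger complex, which corrects faulty attachments and later acts in cytokinesis, were called lower, where 22.8% of all tested genes were. Their median log2 fold change was -0.37. In the limma fit with replicate number as a block, CDCA8 (adjusted p = 0.0632) and BIRC5 (0.265) were not called. AURKB, the kinase of the complex, had 96.4 and 88.9 RPKM in Ctrl against 61.4 and 66.5 in MYCN KD (log2 fold change -0.53, SE 0.069, adjusted p = 0.0117). INCENP, the scaffold that holds the complex together, had 28.1 and 26.8 RPKM in Ctrl against 19.8 and 20.8 in MYCN KD (log2 fold change -0.42, SE 0.049, adjusted p = 0.00953). Both MYCN KD samples of both genes lay well under the Ctrl samples. CDCA8 (borealin) fell with a log2 fold change of -0.33 and BIRC5 (survivin) with one of -0.20; BIRC5 missed the threshold when any of the 4 samples was left out (adjusted p from 0.0945 to 0.264).

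At the kinetochore and centromere 3 of 12 members fell, CENPF, CENPH and ZWINT, a share of 25% that is near the 22.8% of all tested genes, and the median log2 fold change was -0.22. For 10 of the 12 the knockdown samples both lay under the Ctrl samples (83.3%, where 35.8% of all tested genes did so). CENPF, a large protein of the outer kinetochore, had 18.0 and 15.4 RPKM in Ctrl against 10.7 and 12.5 in MYCN KD (log2 fold change -0.49, SE 0.12, adjusted p = 0.0434), the called member nearest to the threshold. CENPA, the histone H3 variant that marks the centromere, lay just outside it, with 27.9 and 31.3 RPKM in Ctrl against 24.4 and 21.9 in MYCN KD (log2 fold change -0.34, SE 0.091, adjusted p = 0.0524). It passed without replicate 1 of Ctrl (adjusted p = 0.00395) or of MYCN KD (0.00587) and did not without replicate 2 of either (0.0902 and 0.0985). The kinesin CENPE had 4.54 and 2.78 RPKM in Ctrl against 1.33 and 2.14 in MYCN KD (log2 fold change -0.76, SE 0.27, 95% CI -1.55 to 0.03, adjusted p = 0.0943). The groups did not overlap, but CENPE had the widest gap between replicates of all members, 0.55 on the log2 scale. With any 1 sample left out it was called lower, but its log2 fold change then ranged from -0.48 (without Ctrl replicate 1) to -1.03 (without Ctrl replicate 2), and such fits take the spread of the lone sample from the other group and other genes. CENPH and ZWINT, an inner and an outer kinetochore protein, had log2 fold changes of -0.31 and -0.28, and neither call held without replicate 2 of either group (adjusted p from 0.0860 to 0.0984 for CENPH and from 0.0990 to 0.110 for ZWINT). The members of the NDC80 complex, which binds microtubules, were not called: the log2 fold change was -0.27 for NDC80, -0.11 for NUF2, -0.08 for SPC25 and -0.07 for SPC24. SPC24, the highest of the kinetochore genes, had 76.3 and 68.7 RPKM in Ctrl against 65.4 and 72.5 in MYCN KD, groups that overlapped (95% CI -0.32 to 0.18). The inner kinetochore genes CENPK and CENPN had log2 fold changes of -0.14 and -0.16. CENPI, of the same assembly, had 5.59 and 7.56 RPKM in Ctrl against 9.24 and 6.90 in MYCN KD. Its groups overlapped and its log2 fold change of 0.26 (95% CI -0.34 to 0.86, adjusted p = 0.354) was not called with 4 samples; it was 0.45 and called higher without replicate 2 of Ctrl (adjusted p = 0.00758) or of MYCN KD (0.0111), and 0.07 and not called without replicate 1 of either group (0.736 and 0.740).

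Of 7 spindle motors and microtubule regulators, 4 fell (57.1%, where 22.8% of all tested genes were called lower). The median log2 fold change was -0.30. TPX2 and HMMR, 2 of those called, had the largest falls among the 26 members called lower. TPX2, which nucleates spindle microtubules and activates Aurora A, had 116 and 135 RPKM in Ctrl against 77.0 and 66.7 in MYCN KD (log2 fold change -0.79, SE 0.12, adjusted p = 0.0149). HMMR, a spindle pole protein first known as a hyaluronan receptor, had 10.1 and 9.52 RPKM in Ctrl against 5.56 and 5.88 in MYCN KD (log2 fold change -0.68, SE 0.054, adjusted p = 0.00539). On the RPKM scale the mean of TPX2 fell by 42.6% and that of HMMR fell by 41.6%, while MYCN itself fell by 32.8%. The depolymerizing kinesin KIF2C and the kinesin KIF18A fell with log2 fold changes of -0.31 and -0.30, the latter not past the threshold without replicate 1 of Ctrl (adjusted p = 0.121) or of MYCN KD (0.129). KIF11, the motor that separates the spindle poles, had a log2 fold change of -0.0038 (95% CI -0.40 to 0.39), and of 0.12 without replicate 2 of either group. KIF4A and DLGAP5 had log2 fold changes of -0.12 and -0.09 and were not called.

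The central spindle and cytokinesis genes went different ways in value. KIF20A, the kinesin that carries the passenger complex to the midzone, had 53.5 and 54.1 RPKM in Ctrl against 34.9 and 34.6 in MYCN KD (log2 fold change -0.62, SE 0.032, adjusted p = 0.00365). KIF23, the motor of centralspindlin, had 18.1 and 20.0 RPKM in Ctrl against 14.9 and 13.6 in MYCN KD (log2 fold change -0.39, SE 0.077, adjusted p = 0.0269). These 2 of the 6 members fell (33.3%, where 22.8% of all tested genes were called lower). KIF23 was not past the threshold after rescaling all samples to equal totals (adjusted p = 0.0568). PRC1, which bundles midzone microtubules and was the highest of the group, had 87.5 and 94.0 RPKM in Ctrl against 90.4 and 84.5 in MYCN KD, overlapping groups (log2 fold change -0.05, 95% CI -0.23 to 0.13). RACGAP1, the partner of KIF23, and ECT2, the exchange factor it recruits, had log2 fold changes of -0.19 (95% CI -0.40 to 0.03) and -0.05 (95% CI -0.45 to 0.36). ANLN (anillin), the scaffold of the contractile ring, had 20.8 and 24.4 RPKM in Ctrl against 28.6 and 24.5 in MYCN KD. Its groups were apart by less than the replicates differed (log2 fold change 0.22, 95% CI -0.14 to 0.58, adjusted p = 0.213), and it was called higher without replicate 2 of Ctrl (0.0254) or of MYCN KD (0.0367) but not without replicate 1 of Ctrl (log2 fold change 0.11, adjusted p = 0.514) or of MYCN KD (0.526).

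Condensin was split between its subunits. NCAPD2, a regulatory subunit found in condensin I only, had 126 and 119 RPKM in Ctrl against 81.4 and 86.1 in MYCN KD (log2 fold change -0.54, SE 0.053, adjusted p = 0.00721). NCAPH, the kleisin of condensin I, had 15.1 and 16.0 RPKM in Ctrl against 10.9 and 10.3 in MYCN KD (log2 fold change -0.51, SE 0.057, adjusted p = 0.00896). Both fell, and no MYCN KD value came near a Ctrl value. They were the only calls among the 6 members of condensin and TOP2A (33.3%, where 22.8% of all tested genes were called lower). The ATPase subunits that condensin I and II share were not called: SMC2 had 10.9 and 11.8 RPKM in Ctrl against 10.7 and 9.97 in MYCN KD (log2 fold change -0.12, 95% CI -0.31 to 0.06). SMC4 had 31.3 and 31.5 RPKM in Ctrl against 33.0 and 32.8 in MYCN KD (log2 fold change 0.06, 95% CI -0.03 to 0.16). The upper confidence limits of NCAPD2 (-0.39) and NCAPH (-0.34) lay below the lower limits of SMC2 and SMC4. The remaining condensin I subunit NCAPG had a log2 fold change of -0.14 (95% CI -0.56 to 0.28) and the decatenating enzyme TOP2A one of -0.16 (95% CI -0.52 to 0.21). The exons of NCAPG share 1634 bases with LCORL, those of SMC4 1553 with TRIM59 and those of NCAPD2 383 with MRPL51 on GRCh37 (GENCODE 44), and whether strand was used in counting is not stated, so reads over these stretches cannot be assigned for certain.

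The last 2 members were not called and overlapped between groups. FOXM1, the transcription factor that activates many G2 and mitosis genes, had 154 and 144 RPKM in Ctrl against 141 and 151 in MYCN KD (log2 fold change -0.03, 95% CI -0.21 to 0.15). MKI67, the chromosome surface protein Ki-67 used as a proliferation marker, had 42.9 and 46.5 RPKM in Ctrl against 46.5 and 43.1 in MYCN KD (log2 fold change 0.00, 95% CI -0.19 to 0.20). The intervals of both genes leave out the median of all members, -0.26. Among the other members not called, so do those of CDC25B, CDC25C, NUF2, SPC25, DLGAP5, PRC1 and SMC4. The value of FOXM1 may hold reads of ITFG2, with which it shares 782 exonic bases on GRCh37.

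**Figure D3:**
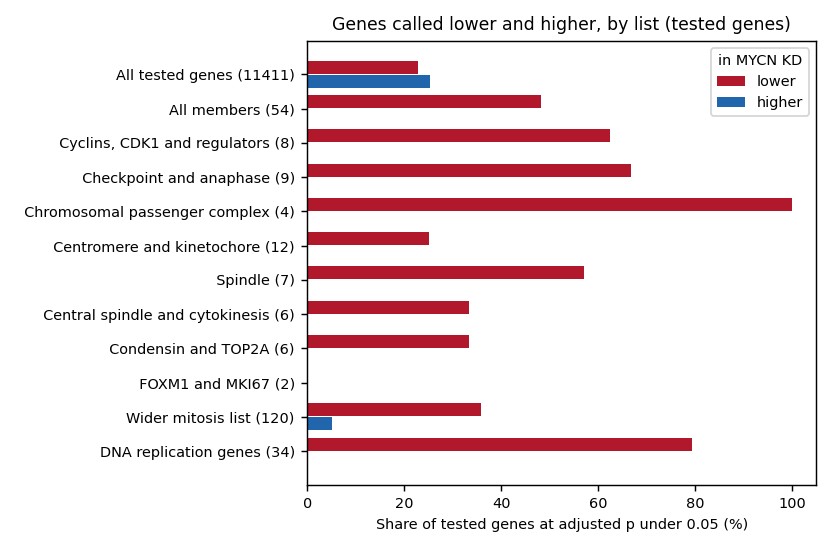
Percent of tested genes called lower and called higher (limma, adjusted p under 0.05) in each role group, over all 54 members, in the wider mitosis list in DNA replication genes and over all 11411 tested genes. The 48.1% of members called lower stand beside 22.8% of all tested genes.

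The 5 paralog pairs chosen for comparison were set against each other within each sample, as log2 ratios of RPKM. CCNB1 over CCNB2 stood at 0.04 and 0.02 in Ctrl against -0.17 and -0.16 after knockdown, and BUB1 over BUB1B at -1.28 and -1.25 against -1.03 and -1.06. SMC2 over SMC4 stood at -1.52 and -1.42 in Ctrl against -1.62 and -1.72 after knockdown. The groups did not overlap for these 3 pairs, each with an exact two-sided permutation p of 0.333, the smallest possible (0.556 adjusted over the 5 pairs). For CKS1B over CKS2 (-0.71 and -0.88 in Ctrl, -0.95 and -0.79 in MYCN KD) and CDC25B over CDC25C (4.16 and 3.95 in Ctrl, 4.06 and 4.26 in MYCN KD) they overlapped.

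Members differed widely in level, and lower calls were more frequent among the more abundant ones. Ordered by mean Ctrl RPKM in 3 groups of 18, the lowest had 5 lower calls and a median log2 fold change of -0.14. Its share of lower calls, 27.8%, was near the 22.8% of all tested genes. The middle group had 8 (44.4%) and -0.28, and the highest 13 (72.2%) and -0.36. Whether lower calls also rose with level over all tested genes was not tested. Across the 54 members the log2 Ctrl level and the log2 fold change had a Pearson r of -0.18 and a Spearman rho of -0.23, given as a description since the members share their 4 libraries and the scale understates changes of low genes. FOXM1, with one of the highest levels, went against the pattern. CENPE, with one of the lowest, departed from it in its log2 fold change (-0.76) but not in its call, since it was not called.

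**Figure D4:**
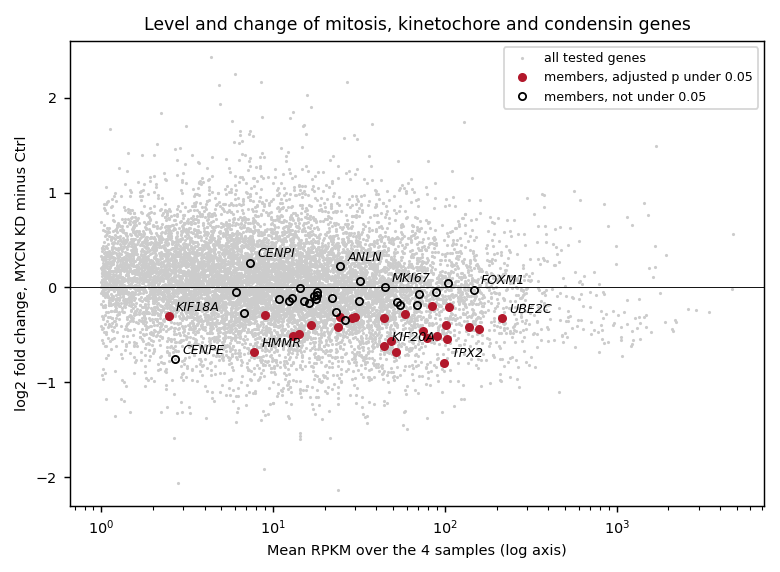
Log2 fold change (MYCN KD against Ctrl) of each member (red, called lower; open, not called) and of all tested genes (grey) against mean RPKM over the 4 samples (log axis). Of the 54 members, 49 lie below 0, and the called ones are spread from KIF18A at the low to UBE2C at the high end.

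On GRCh37 the members lie on 19 chromosomes, with 7 on chromosome 5. There, CCNB1 and CENPH lie 11.33 kb apart and both fell. KIF20A and CDC25C lie 97.55 kb apart, and of these KIF20A fell while the groups overlapped for CDC25C. In all, 13 members share exonic bases with another listed protein-coding gene.

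RefSeq promoter windows of 300 bases (250 before and 50 after the start, GRCh38.p14, both strands searched) were matched for 46 of 54 members. The windows of AURKB, CENPI and SMC2 lie 326, 2854 and 6046 bases from the RefSeq gene start and are among those counted. CHR letters (TTTGAA or TTTAAA) were present in 38 of these (82.6%), against 15.1% of the windows of 8489 tested genes and 24.4% of all 27305 windows. CCAAT was present in 34 (73.9%), against 37.5% of tested and 35.7% of all windows. The E-box CACGTG was present in 4, those of CCNB1, CENPE, CENPF and ANLN (8.70%, against 10.6% and 7.41%). E2F letters (TTTCCCGC, TTTCGCGC, TTTGGCGC or TTTGCCGC) were present in 2, those of CDK1 and CENPA (4.35%, against 5.69% and 3.34%). Thus CHR and CCAAT letters were common among the members and the E-box letters were not. A window counts once for each motif, however many matches it holds and also where matches to different motifs overlap.

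Of the 38 members with CHR letters 19 fell, with a median log2 fold change of -0.29, and of the 8 without them 2 fell, with a median of -0.09. The 8 include AURKB, which fell, and CENPI, and the 38 include SMC2. The windows of these genes lie away from the RefSeq gene start, so their CHR letters there are not known. Among all tested genes 22.8% were called lower. With CCAAT, 19 of 34 fell (median -0.32), and without it 2 of 12 (median -0.12). With the E-box, 2 of 4 fell (median -0.44), and without it 19 of 42 (median -0.23). ANLN and HMMR, whose CHR matches are printed above, lie near opposite ends of the range of fold changes, as do the E-box genes ANLN (0.22) and CENPE (-0.76). Over all tested genes with CHR letters the median log2 fold change was -0.0038, against 0.033 for tested genes whose window lacked them. For CCAAT these medians were 0.0099 and 0.039. For the E-box they were -0.078 and 0.039, and for E2F letters -0.074 and 0.033. These differences were not tested. A match describes letters in a window and was not tested as a binding site.

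**Figure D5:**
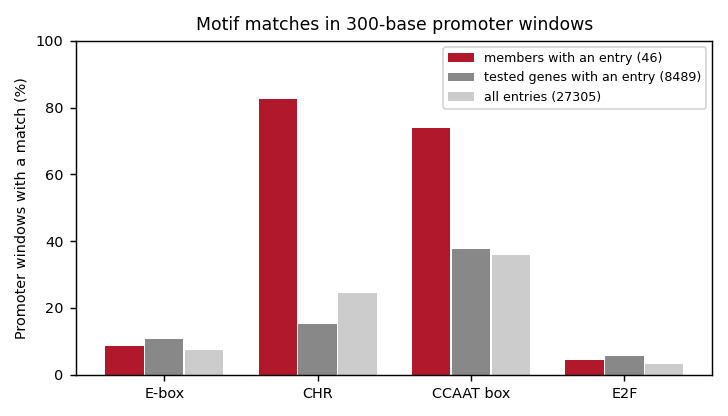
Percent of 300-base promoter windows that hold each motif, among 46 members, 8489 tested genes and all 27305 windows. CHR (82.6%) and CCAAT (73.9%) are more frequent among members than in the other sets, and the E-box (8.70%) and E2F letters (4.35%) lie between the shares of the other sets.

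Beyond the members, a wider list of 123 mitosis genes chosen by function held 120 tested genes, of which 43 fell (35.8%), 6 rose (5.00%) and the rest were not called, with a median log2 fold change of -0.20. Over all tested genes 22.8% were called lower and 25.3% higher. Among 15 mitotic kinases and phosphatases 5 fell, including the phosphatase CDC25A (log2 fold change -0.86) and Aurora A, AURKA (-0.70), the kinase that TPX2 activates. Among 34 further centromere and kinetochore genes 12 fell, among them CENPV (-0.85), and 2 rose. Of 24 other spindle and cytokinesis genes 10 fell, led by CKAP2 (-0.77) and DEPDC1 (-0.74). Of 17 genes of the anaphase-promoting complex and its partners 6 fell, led by its subunit CDC26 (-0.58) and by UBE2S (-0.45), the enzyme that extends the chains begun by UBE2C, and 1 rose. Among 16 condensin II and cohesin genes 5 fell, led by CDCA5 (sororin, -0.51) and the condensin II subunit NCAPD3 (-0.50), and 1 rose. Of 14 genes of the DREAM and MuvB complexes and related factors 5 fell, led by E2F5 (-1.32) and the E2F partner TFDP1 (-0.70), and 2 rose, the MuvB subunits LIN37 (0.54) and LIN54 (0.48), named after their values were seen.

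Among 34 DNA replication genes, listed for comparison, 27 fell (79.4%) and 0 rose, with a median log2 fold change of -0.43. Of 7 tested G1 cyclin and kinase genes 2 fell, CCNE1 (-0.57) and CDK4 (-0.48). That share, 28.6%, was near the 22.8% of all tested genes. Whether these lists differ from the 54 members was not tested.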

How the data were processed

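RNA-seq was analysed for 2 Ctrl and 2 MYCN KD samples of BE(2)C cells. The authors aligned the reads to hg19 with HISAT2 2.1.0, assigned them to RefSeq genes by featureCounts, used RUVSeq to take out unwanted variation within a DESeq2 model, and deposited RPKM from the normalized counts, 1 value per gene and sample. This removal can shrink or mirror the spread between replicates on which the p-values rest. The study calls its replicates biological, but the labels do not say that they came from separate cultures, and p-values measure only the spread between these samples.

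From the deposited RPKM, log2(RPKM + 1) was fitted with limma 3.58.1 in R 4.3.3 (eBayes with a trend) for those genes whose mean RPKM reached 1, comparing MYCN KD with Ctrl over all 4 samples without covariates, with Benjamini-Hochberg adjustment over all tested genes and a threshold of 0.05. The fit was tested on simulated data, and was repeated with other pseudocounts, filters and scalings, without the trend, with a replicate block and without each sample in turn. Single values used the exact two-sided permutation test over samples. Values per sample are given for the 2 members of each role with the largest absolute fold change, the highest member, every member above 0, the paralog pairs and the members on either side of the threshold. In each wider list the 2 called genes with the largest change are named, except 1 gene that is not reported here. Promoters were to be shown for the 2 largest falls and the 2 highest fold changes with a RefSeq entry. The members, lists and motifs were chosen with earlier results of these data known. Other genes of the series are not described here.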

Additional observations from a re-analysis of the deposited data

How the results depend on the processing

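Of the 54 members, 26 were called lower in the analysis as reported, between 21 and 30 under the other filters, pseudocount, scalings and variance model, and 18 of the 26 were lower in all 9 fits with 4 samples and no block. Their median log2 fold change stayed between -0.29 and -0.21 in these and the leave-one-out fits. With 1 sample left out, where the lone sample is assumed to vary like the other group, lower calls numbered 21 to 25 among members, 2153 to 2429 among all genes (2599 with all samples) and 37 to 53 in the wider list (43), and higher calls 0 to 2, 2460 to 2781 (2890) and 4 to 9 (6). A filter at a mean RPKM of 5, which tests fewer genes, left 1868 higher calls among all genes. Of all calls, 52.7% were higher as deposited and 60.7% after rescaling to equal totals, which moved the median of all genes from 0.03 to 0.08.

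Same-numbered replicates deviated oppositely (r = -0.98). The authors' removal of unwanted variation can also mirror replicates, so whether the numbers pair the samples cannot be told from these values. With the replicate block, 18 members were called lower, 17 of them among the 26, and 1851 genes were lower and 2077 higher over all genes, with 2 higher in the wider list. The next alternatives were added after seeing the data. A crossed replicate block gave 48 lower and 4 higher members, 5262 lower and 5910 higher genes, and 83 lower and 34 higher in the wider list. Limma voom on the recovered reads gave 26 lower members. These reads were rebuilt from the same deposited values, so that fit is not an independent check. It is among the 9 fits with 4 samples and no block counted above.

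The sign of 8 members near 0 turned in some fits. With rescaling, log2 fold changes became 0.0016 for CDC25C, 0.012 for ECT2, 0.035 for FOXM1, 0.053 for KIF11 and 0.0080 for PRC1. Quantile normalization gave 0.061 for FOXM1 and 0.041 for PRC1, and centring on the median gave -0.027 for MKI67. With 1 sample left out, values ran from -0.014 to 0.113 for CDC25B, -0.171 to 0.080 for ECT2, -0.077 to 0.025 for FOXM1, -0.128 to 0.120 for KIF11, -0.053 to 0.058 for MKI67 and -0.145 to 0.0041 for SPC24. The causes were not tested.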
